A study of Mus musculus with 8 samples.

Results

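The 8 genes described here encode transcription factors that shape the effector state of regulatory T (Treg) cells or mark the helper T cell lineages. They are Prdm1, Irf4, Batf, Gata3, Tbx21, Rora, Runx1 and Runx3. They were taken by gene symbol from the deposited expression table, which lists 22432 genes, and all 8 were among the 13797 genes expressed enough to be tested. Treg cells were sorted from pooled spleen and lymph nodes of C57Bl/6 mice by the YFP reporter carried with Cre under Foxp3, so deletion was driven in cells that express Foxp3. WT cells carried Foxp3-CRE-YFP alone, RelB-KO cells also carried RelB F/F, Nfkb2-KO cells carried nfkb2 F/F, and DKO cells carried both floxed genes. All cells were stimulated for 16 h on plates coated with antibody to CD3 (5 µg/ml), with soluble antibody to CD28 (1 µg/ml), an agonist antibody to OX40 (2 µg/ml) and IL-2 (10 ng/ml). Each genotype had 2 libraries, numbered replicate 1 and replicate 2. The labels do not say that replicates came from separate animals, so p-values measure only the spread between these libraries.

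A resting Treg cell becomes an effector Treg cell after antigen receptor and costimulatory signals. Irf4 pairs with Batf on composite DNA sites and switches on effector genes, and Prdm1, which encodes Blimp-1, acts further along that path and is needed for much of the IL-10 made by effector Treg cells. Gata3, Tbx21 (T-bet) and Rora are best known as the factors of the Th2, Th1 and Th17 lineages, and Treg cells use them too, often at the sites where the matching helper cells act. Runx1 and Runx3 bind DNA together with Cbfb, support Foxp3 expression and, in Th1 cells, act with T-bet. RelB and the Nfkb2 product p52 form the main dimer of the alternative NF-kB pathway, which OX40 and related receptors can engage. The Nfkb2 precursor p100 also holds RelB back in the cytoplasm.

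Values below are the deposited log2 expression values, and differences are on that log2 scale ± the standard error of a linear model (limma) over all 8 libraries. The p-values were adjusted over all 13797 tested genes by the Benjamini-Hochberg method, and an adjusted p under 0.05 is called passing. A second fit added the replicate number as a block, because libraries with the same number deviated together, and its values are given as "with the replicate block". An exact permutation test of 2 libraries against 2 cannot go below p = 0.333, so none is given. The deleted genes followed the labels. Relb lay between 6.35 and 7.08 in the 4 libraries of RelB-KO and DKO and between 10.49 and 10.84 in the other libraries, and Nfkb2 lay between 8.75 and 9.85 in Nfkb2-KO and DKO and between 12.31 and 12.80 elsewhere. Both transcripts were higher in DKO than in the matching single knockout. Nfkb2 was 0.80 ± 0.20 higher in DKO than in Nfkb2-KO (adjusted p = 0.184, and 0.0379 with the replicate block). Relb was 0.47 ± 0.13 higher in DKO than in RelB-KO (adjusted p = 0.546 with the block). The part of this in the differences of DKO below was not tested. Foxp3 was between 13.95 and 14.28 in every library. WT replicate 1 stood apart in transcripts of the sex chromosomes. Its Xist level was 8.17, where the other libraries had 14.61 to 15.13, and its Ddx3y level was 11.60, where they had 4.25 to 4.35, so differences from WT are also given without it where a call or the size, by over 1.5 times, changes. The levels are of bulk RNA, in which fewer cells of a type and less RNA per cell cannot be told apart.

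The 8 factors fell into several patterns across the genotypes. Irf4 and Runx3 were highest in Nfkb2-KO cells. Prdm1, Batf and Gata3 had their highest mean in DKO cells, Tbx21 had its lowest mean in RelB-KO cells, Rora overlapped between all genotypes, and Runx1 varied little. The genotype means of Runx3 spanned 0.95 log2 units, more than those of 98.9% of tested genes, and the spans of Batf (0.80), Tbx21 (0.77), Irf4 (0.65), Prdm1 (0.65) and Gata3 (0.50) were each above at least 94.3% of tested genes. Rora spanned 0.38, more than 90.3% of tested genes, and Runx1 0.11, more than 39.7%, beside a median of 0.14 over all tested genes. These ranks were not matched for level. All 8 factors had a mean log2 value of at least 5, as did 10416 of the 13797 tested genes. A span also takes in the spread between replicates.

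**Figure D1:**
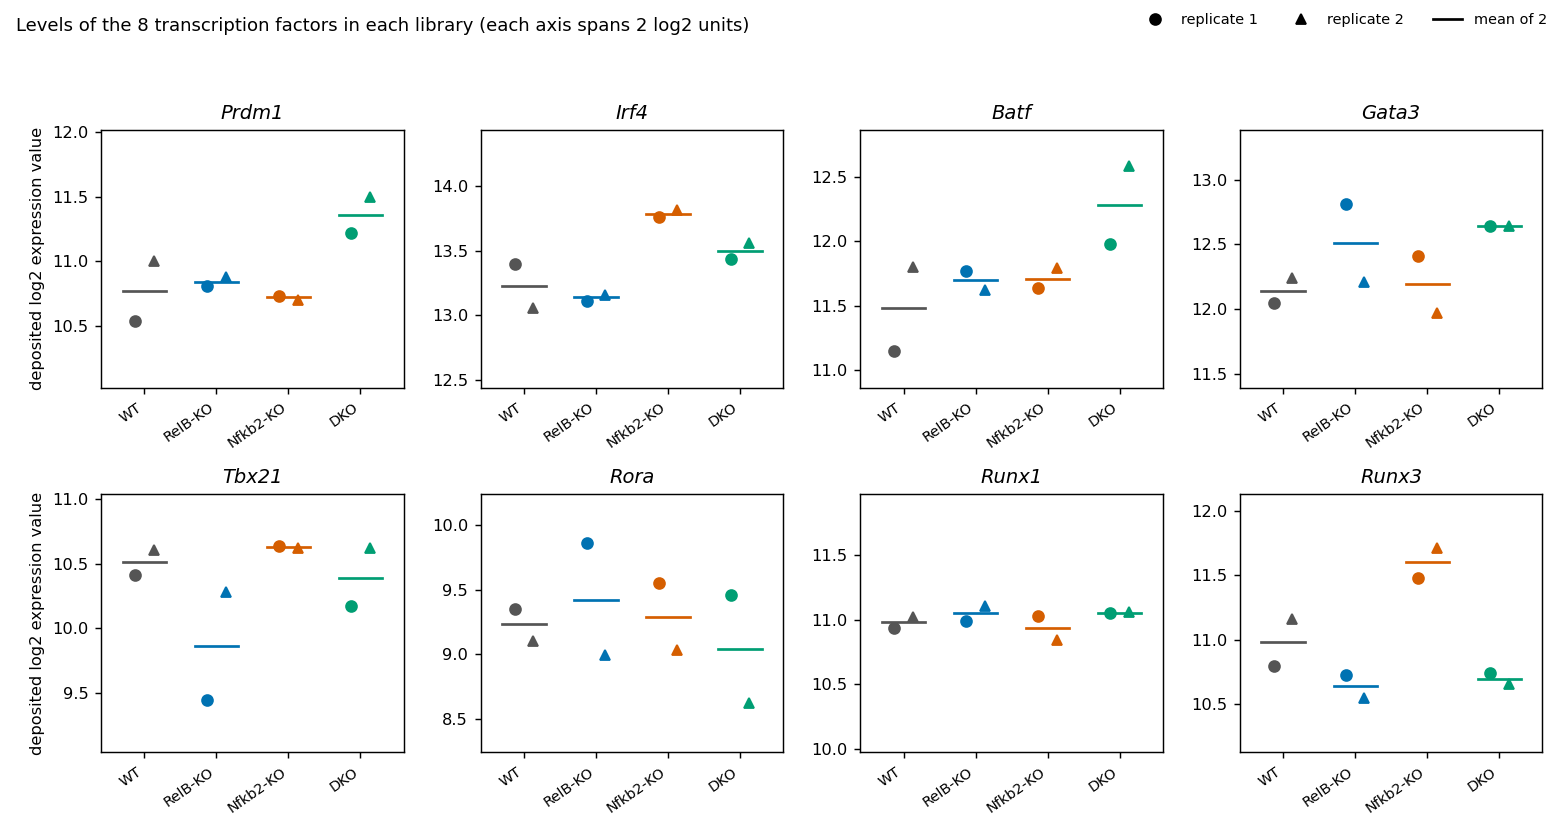
Deposited log2 expression value (vertical axis) of each of the 8 transcription factors in the 4 genotypes (horizontal axis), with circles for replicate 1, triangles for replicate 2 and a line at the mean of the 2 libraries. Both Nfkb2-KO libraries are above all others for Irf4 (13.76 and 13.82) and Runx3 (11.48 and 11.71), and both DKO libraries are above all others for Prdm1 (11.22 and 11.50).

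Without the replicate block, none of the 8 factors was called by limma in any of the 7 contrasts. These were the 6 pairs of genotypes and the interaction, which asks whether the step from Nfkb2-KO to DKO differs from the step from WT to RelB-KO. Few of all tested genes were called either. The share was 0.00725% in RelB-KO against WT, 0.341% in Nfkb2-KO against WT, 0.0145% in DKO against WT, 0.768% in DKO against Nfkb2-KO, 0.00725% in DKO against RelB-KO, 0.797% in Nfkb2-KO against RelB-KO and 0.00725% in the interaction. At an unadjusted p under 0.05, limma without the block counted 0 of the 8 factors in RelB-KO against WT (1.24% of all tested genes), 2 in Nfkb2-KO against WT (10.7%) and 2 in DKO against WT (5.18%). It counted 2 in DKO against Nfkb2-KO (9.86%), 2 in DKO against RelB-KO (2.88%), 3 in Nfkb2-KO against RelB-KO (11.9%) and 2 in the interaction (4.45%).

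With the replicate block, Irf4 and Runx3 were called higher in Nfkb2-KO against WT, as were 1.91% of all tested genes. Between DKO and Nfkb2-KO, Prdm1 was called higher, as were 2.07% of all genes, and Runx3 lower, as were 2.96%. Between Nfkb2-KO and RelB-KO, Irf4, Tbx21 and Runx3 were called higher, as were 2.78% of all genes. The block fit called none of the 8 in the other contrasts. These were RelB-KO against WT (0.0145% of genes called), DKO against WT (0.0652%), DKO against RelB-KO (0.0145%) and the interaction (0.471%). There the block fit counted 2, 4, 5 and 2 factors at an unadjusted p under 0.05, against 3.13%, 12.9%, 8.81% and 8.36% of all genes. In the authors' deposited table, adjusted p values against WT called Irf4 and Runx3 higher in Nfkb2-KO, as were 3.49% of genes with a value. In that table Prdm1 was called higher in DKO, as were 0.593% of genes, and none of the 8 was called in RelB-KO, where 0.119% of genes were.

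**Figure D2:**
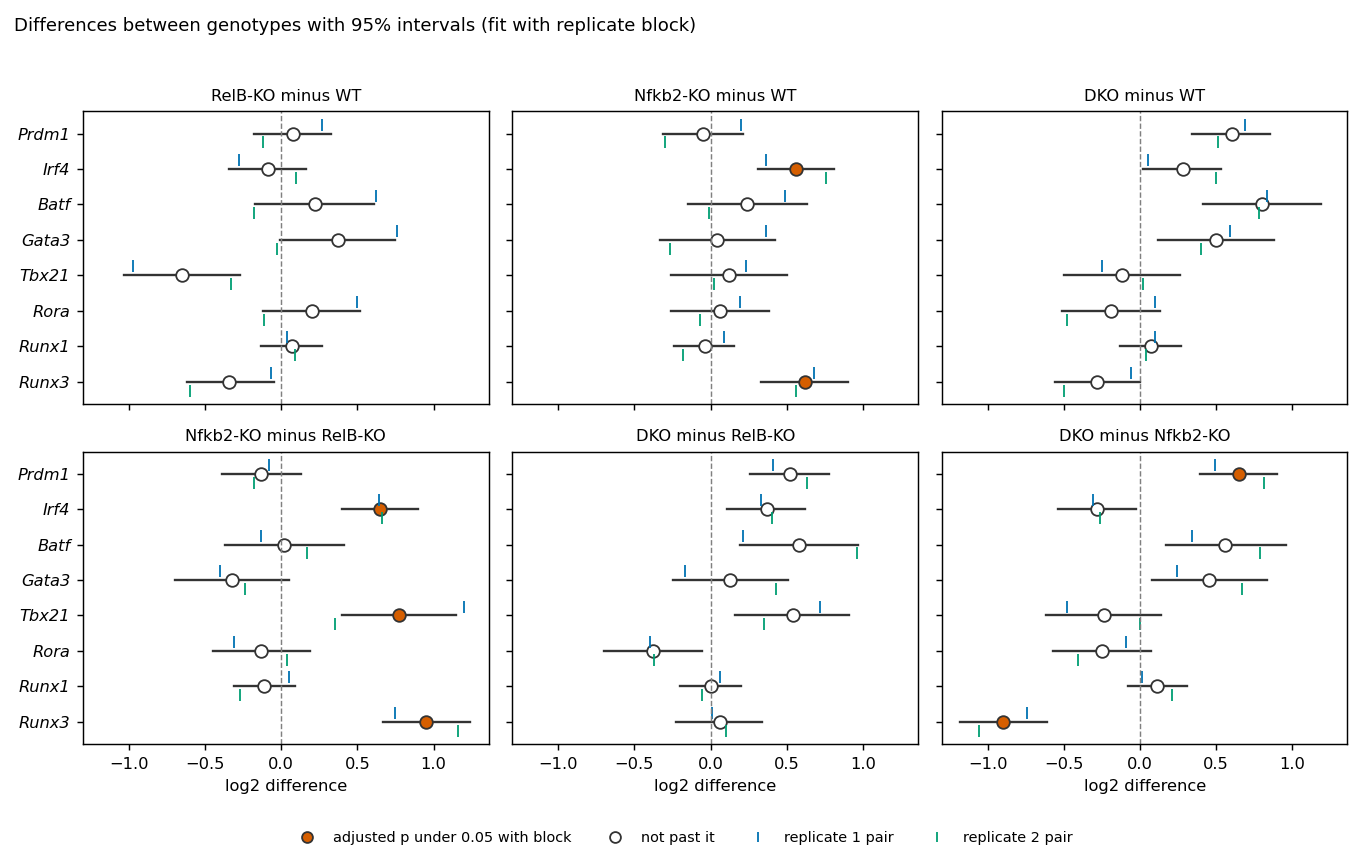
Log2 difference between genotypes (horizontal axis) for each factor (vertical axis) in the 6 pairs of genotypes, with circles for the estimate, lines for its 95% interval in the fit with the replicate block, filled circles where the adjusted p was under 0.05 there, and ticks for the difference within replicate 1 and within replicate 2. The Runx3 differences of -0.90 between DKO and Nfkb2-KO and of 0.95 between Nfkb2-KO and RelB-KO are the largest of the 8 factors in those panels.

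Irf4, the factor that opens the effector programme, was higher in Nfkb2-KO cells than in the other genotypes. The gene lies on chromosome 13, 30749226 to 30766976, plus strand (mm10). Its log2 values were 13.40 and 13.06 in WT, 13.11 and 13.16 in RelB-KO, 13.76 and 13.82 in Nfkb2-KO, and 13.44 and 13.56 in DKO, for replicates 1 and 2. Both Nfkb2-KO libraries lay above all 6 others, and the DKO libraries lay just above the higher WT library. Against WT, Irf4 in Nfkb2-KO was 0.56 ± 0.13 higher, a ratio of 1.47, without passing the threshold in the first fit (adjusted p = 0.21), and it passed with the replicate block (adjusted p = 0.0364). The authors' deposited table gives 0.55 for this difference, with an adjusted p of 0.00028. Against RelB-KO the difference was 0.65 ± 0.13 (adjusted p = 0.104, and 0.0141 with the block), with 0.64 within replicate 1 and 0.66 within replicate 2. The summed un-logged level of 9 myeloid and dendritic cell markers was also highest in Nfkb2-KO (633 and 583, against 268 to 500 elsewhere), as it was where Runx3 was highest. Zbtb46 alone held 73.4% to 88.6% of that sum in each library, and without it the sum was 77.4 and 66.6 in Nfkb2-KO and 66.8 to 106 in the other libraries.

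In DKO cells Irf4 was between the Nfkb2-KO level and the RelB-KO level. It was 0.28 ± 0.13 above WT (adjusted p = 0.861, and 0.355 with the block), and with the block this was 0.48 when WT replicate 1 was left out and 0.07 when WT replicate 2 was. It was 0.28 below Nfkb2-KO (-0.28 ± 0.13, adjusted p = 0.547, and 0.241 with the block) and 0.37 ± 0.13 above RelB-KO (unadjusted p = 0.0239, adjusted p = 0.546 with the block). None of these differences passed. The rise of Irf4 in Nfkb2-KO over WT depended on which WT library was used. With the block it was 0.77 without WT replicate 1 (adjusted p = 0.00951) and 0.35 without WT replicate 2 (adjusted p = 0.123). That call was also lost without either Nfkb2-KO library (adjusted p = 0.143 without replicate 1 and 0.2 without replicate 2) or either DKO library (0.057 and 0.0567), and the call against RelB-KO without any one library of the 2 genotypes compared (0.0548 to 0.0988).

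The promoter of Irf4, like those of Runx3, Prdm1 and Tbx21, is shown because these are the factors called, with the replicate block, between genotypes that differ in NF-kB subunits. Each sequence is from RefSeq (GRCm38.p6, the same assembly as mm10), 5′ to 3′ on the gene's strand, from 250 bases before the transcription start to 50 after it. Capitals mark GGG followed, after any 5 bases, by CC on either strand, the loose core of NF-kB sites, and overlapping matches run together. The Irf4 promoter is chr13:30748983-30749282, plus strand.

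Irf4: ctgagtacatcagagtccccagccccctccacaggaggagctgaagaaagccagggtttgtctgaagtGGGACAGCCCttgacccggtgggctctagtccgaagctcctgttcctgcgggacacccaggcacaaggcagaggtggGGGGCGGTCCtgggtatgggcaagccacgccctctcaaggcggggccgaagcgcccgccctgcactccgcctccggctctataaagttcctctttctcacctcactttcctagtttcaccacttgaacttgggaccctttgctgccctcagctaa

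Batf, the AP-1 family partner of Irf4 (chromosome 12, 85686669 to 85709087, plus strand), was highest in DKO cells. The libraries had log2 values of 11.15 and 11.80 in WT, 11.77 and 11.62 in RelB-KO, 11.64 and 11.79 in Nfkb2-KO, and 11.98 and 12.58 in DKO. Both DKO libraries lay above all 6 others, and WT replicate 1 was the lowest library. The DKO mean was 0.80 ± 0.26 above WT, with 0.83 within replicate 1 and 0.78 within replicate 2. This did not pass (adjusted p = 0.861, and 0.198 with the block), and the authors' deposited table gives a smaller difference of 0.50 with an adjusted p of 0.164. Without WT replicate 1 the difference was 0.48, and 0.58 with the block (adjusted p = 0.21). Against Nfkb2-KO it was 0.56 ± 0.26 (adjusted p = 0.578, and 0.12 with the block), and against RelB-KO 0.58 ± 0.26 (adjusted p = 0.546 with the block). The 2 DKO libraries themselves differed by 0.60. The summed level of 4 markers of group 2 innate lymphoid cells was also highest in DKO (9020 and 13900, against 2670 to 8440 elsewhere), and its part was not tested. Most of that sum in each library was Il1rl1, which is also in the effector Treg and Th2 lists below. With the block, Batf passed against WT when RelB-KO replicate 1 (adjusted p = 0.0466) or replicate 2 (0.0461) was left out, and against Nfkb2-KO likewise (0.0335 and 0.0334).

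Prdm1, which encodes Blimp-1 (chromosome 10, 44437177 to 44528501, minus strand), was also highest in DKO cells. Its log2 values were 10.54 and 11.00 in WT, 10.81 and 10.88 in RelB-KO, 10.73 and 10.70 in Nfkb2-KO, and 11.22 and 11.50 in DKO. The DKO libraries lay above all 6 others, and all values of the single knockouts lay inside the WT range. Prdm1 was 0.65 ± 0.16 higher in DKO than in Nfkb2-KO, a ratio of 1.57 (adjusted p = 0.185), and passed with the replicate block (adjusted p = 0.0135). It was 0.60 ± 0.16 higher than in WT (adjusted p = 0.861, and 0.165 with the block), and for this difference the authors' deposited table gives 0.60 with an adjusted p of 0.00184. The difference from WT without WT replicate 1 was 0.37, and 0.42 with the block (adjusted p = 0.163). Prdm1 was 0.52 ± 0.16 higher in DKO than in RelB-KO (unadjusted p = 0.0169, adjusted p = 0.546 with the block).

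Whether loss of RelB moved Prdm1 differently with and without Nfkb2 was tested by the interaction. Its estimate was 0.57 ± 0.23, with an unadjusted p of 0.0452 and an adjusted p of 0.234 with the block, so it did not pass. The call between DKO and Nfkb2-KO was lost without Nfkb2-KO replicate 2 (0.49, adjusted p = 0.116 with the block), DKO replicate 1 (0.71, adjusted p = 0.0865) or DKO replicate 2 (0.59, adjusted p = 0.166). Against WT, Prdm1 passed with the block only when WT replicate 2 was left out (0.77, adjusted p = 0.0373), among the 8 libraries left out in turn. The Prdm1 promoter is chr10:44458699-44458998, minus strand, with the same capitals.

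Prdm1: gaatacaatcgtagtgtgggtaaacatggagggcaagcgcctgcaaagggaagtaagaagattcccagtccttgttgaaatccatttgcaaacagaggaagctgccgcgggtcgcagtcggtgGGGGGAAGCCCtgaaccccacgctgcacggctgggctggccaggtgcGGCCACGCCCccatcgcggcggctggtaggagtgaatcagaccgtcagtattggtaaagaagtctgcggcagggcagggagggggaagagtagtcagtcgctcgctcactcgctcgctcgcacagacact

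Genes linked to the effector Treg state leaned upward in some comparisons and were evenly split in others. Of 20 effector Treg genes outside the 8 factors, 13 had a positive difference between DKO and WT, with a median of 0.19 beside 0.001 over all tested genes. None passed the test in either fit, and limma without the block gave 3 an unadjusted p under 0.05. Without WT replicate 1, this median was smaller in the fit without the block. Between DKO and RelB-KO, 16 were positive (median 0.14), and between Nfkb2-KO and WT, 14 (median 0.06). Under quantile normalization the split between Nfkb2-KO and WT was nearly even, with 11 positive and 9 negative (median 0.02). Between RelB-KO and WT, 11 were positive (median 0.01). Between DKO and Nfkb2-KO, 10 were positive and 10 negative, with a median of 0.08, and the split was the same between Nfkb2-KO and RelB-KO (median 0.02). From Nfkb2-KO to DKO, Havcr2, which encodes the checkpoint receptor TIM-3, fell by 0.71 (adjusted p = 0.0364). With the replicate block, 4 of the 20 rose and 3 fell from Nfkb2-KO to DKO.

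The genes that rose there with the block were Gzmb, the granule protease granzyme B (1.87 ± 0.15, adjusted p = 0.0004), Klrg1, a receptor of terminal effector cells (1.23 ± 0.24, adjusted p = 0.0216), Icos, a costimulatory receptor (0.78 ± 0.12, adjusted p = 0.00791), and Ebi3, a subunit of IL-35 (0.65 ± 0.10, adjusted p = 0.00672). Those that fell were Havcr2, the chemokine receptor gene Ccr6 (-1.04 ± 0.16, adjusted p = 0.00725) and Areg, the tissue repair factor amphiregulin (-0.63 ± 0.12, adjusted p = 0.018). The replicates of Gzmb differed by 0.77 to 1.52 within a genotype. Log2 values of Gzmb were 9.85 and 10.85 in WT, 9.85 and 10.62 in RelB-KO, 8.33 and 9.39 in Nfkb2-KO, and 9.97 and 11.49 in DKO, with replicate 2 higher in each pair. Without WT replicate 1, the number called between DKO and Nfkb2-KO was 0 in the first fit and 9 with the block.

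Of 13 factors and genes of the resting state, several of which Blimp-1 opposes, 9 had a negative difference between Nfkb2-KO and WT, with a median of -0.28. None passed without the block, where limma gave 7 an unadjusted p under 0.05. With the block, Satb1, a chromatin organizer of naive T cells (-1.28 ± 0.16, adjusted p = 0.00509), Bcl6, the follicular factor that represses Prdm1 (-0.86 ± 0.12, adjusted p = 0.00905), and Foxp1, a quiescence factor (-0.64 ± 0.14, adjusted p = 0.0451), fell, as did 1% of all tested genes. Il7r, the IL-7 receptor chain, rose (0.72 ± 0.13, adjusted p = 0.0279). Prdm1 itself was 10.73 and 10.70 in Nfkb2-KO, inside the WT range of 10.54 to 11.00. Without WT replicate 1, Satb1 (-0.96) and Bcl6 (-1.07) alone were called with the block, where Foxp1 stood at -0.46 and Il7r at 0.52.

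Between DKO and Nfkb2-KO, where Prdm1 passed with the block, 10 of these 13 genes were positive, with a median of 0.19. This comparison and that of Nfkb2-KO with WT share the Nfkb2-KO libraries with opposite sign, so the signs in one are no support for those in the other. Satb1 was 12.26 and 11.55 in WT, 12.20 and 11.94 in RelB-KO, 10.60 and 10.65 in Nfkb2-KO, and 12.29 and 12.28 in DKO. It rose by 1.66 ± 0.22 from Nfkb2-KO to DKO in the fit without the block (adjusted p = 0.0322), and the Nfkb2-KO libraries lay below all 6 others. With the block, Lef1 (0.50 ± 0.12, adjusted p = 0.0442) and Foxp1 (0.70 ± 0.14, adjusted p = 0.021) rose too, and Il7r fell by 0.79 (adjusted p = 0.0116).

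Gata3, the Th2 factor that also supports Treg cells in tissues (chromosome 2, 9857078 to 9890034, minus strand), had log2 values of 12.05 and 12.24 in WT, 12.81 and 12.21 in RelB-KO, 12.41 and 11.97 in Nfkb2-KO, and 12.64 and 12.64 in DKO. The highest single library was RelB-KO replicate 1, and the other RelB-KO library lay inside the WT range. Both DKO libraries lay above both WT libraries and both Nfkb2-KO libraries. The DKO mean was 0.50 ± 0.22 above WT (adjusted p = 0.861, and 0.298 with the block) and 0.45 ± 0.22 above Nfkb2-KO (adjusted p = 0.603, and 0.203 with the block), and neither passed. Without WT replicate 1 the difference from WT was 0.41, and 0.23 with the block, where it was 0.77 without WT replicate 2. The difference from Nfkb2-KO was 0.23 without Nfkb2-KO replicate 2 and 0.68 without Nfkb2-KO replicate 1, both without the block. The annotated Gata3 locus overlaps 3 other genes, 2 of which were tested, and how reads in shared parts were counted is not given in the sources used here, so its level is uncertain.

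Of 11 measured Th2 genes outside the 8 factors, 9 had a positive difference between DKO and WT, with a median of 0.28. None passed in either fit, with 2 at an unadjusted p under 0.05 without the block. The median was smaller without WT replicate 1, in the fit without the block. Il1rl1, the receptor for the alarmin IL-33, had log2 values of 11.16 and 12.38 in WT, 12.86 and 12.18 in RelB-KO, 12.12 and 12.44 in Nfkb2-KO, and 12.99 and 13.65 in DKO. Its difference between DKO and WT was 1.55 ± 0.44 (adjusted p = 0.861, and 0.198 with the block), and without WT replicate 1, its lowest library, it was 0.94, and 0.99 with the block. Il1rl1, Klrg1, Il17rb and Arg1 are also markers of group 2 innate lymphoid cells. All 4 were positive in DKO against WT, with a median of 1.02, and against Nfkb2-KO Il17rb and Klrg1 passed with the block. Their summed un-logged value ranged from 2670 to 5900 in WT, from 5240 to 8440 in RelB-KO, from 4850 to 5980 in Nfkb2-KO and from 9020 to 13900 in DKO. Il1rl1 held most of that sum in each library, since Klrg1 lay between 8.23 and 9.69 and Il17rb between 6.21 and 7.67 on the log2 scale. The sum was thus mainly 1 gene, which is also in the Th2 and effector Treg lists. It was highest in the genotype in which Gata3, Batf and Prdm1 had their highest means, and its part in those results was not tested. Arg1, counted among the 4, was low and nearly level, between 1.57 and 1.64 in every library, so its sign says little.

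Tbx21, which encodes T-bet, the Th1 factor (chromosome 11, 97098071 to 97115331, minus strand), was lowest in RelB-KO cells. Its log2 values were 10.41 and 10.61 in WT, 9.44 and 10.28 in RelB-KO, 10.64 and 10.62 in Nfkb2-KO, and 10.17 and 10.62 in DKO. Both RelB-KO libraries lay below both WT and both Nfkb2-KO libraries, and the one DKO library at 10.17 lay between the RelB-KO libraries. Tbx21 was 0.77 ± 0.28 higher in Nfkb2-KO than in RelB-KO (adjusted p = 0.335), and this passed with the replicate block (adjusted p = 0.038). The difference was 1.20 within replicate 1 and 0.35 within replicate 2.

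Against WT, Tbx21 in RelB-KO differed by -0.65 ± 0.28. The unadjusted p was 0.0531, and 0.00387 with the block, where the adjusted p was 1. The size rested on RelB-KO replicate 1, since the difference was -0.23 without that library (-0.34 with the block) and -1.07 without RelB-KO replicate 2. For this difference the authors' deposited table gives -0.57 with an adjusted p of 0.196. DKO, which also lacks RelB, was 0.54 ± 0.28 above RelB-KO (adjusted p = 0.546 with the block), and 0.12 above it without RelB-KO replicate 1. The call between Nfkb2-KO and RelB-KO was lost without RelB-KO replicate 1 (0.46, adjusted p = 0.163 with the block), Nfkb2-KO replicate 1 (0.52, adjusted p = 0.262) or either DKO library (adjusted p = 0.0773). The Tbx21 promoter is chr11:97115282-97115581, minus strand.

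Tbx21: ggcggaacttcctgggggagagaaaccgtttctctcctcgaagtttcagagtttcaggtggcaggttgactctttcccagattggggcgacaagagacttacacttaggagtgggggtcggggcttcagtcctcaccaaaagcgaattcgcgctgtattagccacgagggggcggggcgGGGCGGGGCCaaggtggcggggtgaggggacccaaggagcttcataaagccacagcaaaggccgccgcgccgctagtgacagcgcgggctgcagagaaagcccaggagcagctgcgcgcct

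Of 12 Th1 genes, more were negative than positive against WT in each knockout genotype, and none passed in RelB-KO or DKO. In Nfkb2-KO, 7 were negative and 5 positive, with a median of -0.05, and Ccl5 rose with the block. These comparisons share the WT libraries, so like signs in one are no support for those in another. In DKO, where Tbx21 was near WT (-0.12 ± 0.28), 9 were negative, with a median of -0.23. In RelB-KO, 11 were negative, with a median of -0.13, and limma without the block gave 2 an unadjusted p under 0.05. They were Ifng, which encodes the Th1 cytokine interferon gamma (-0.78 ± 0.18, adjusted p = 0.339 with the block), and Cxcr3, a chemokine receptor under T-bet (-0.49 ± 0.12, unadjusted p = 0.00576). Ifng was 8.31 and 8.66 in WT, 7.48 and 7.94 in RelB-KO, 8.20 and 8.33 in Nfkb2-KO, and 8.35 and 8.31 in DKO, so that both RelB-KO libraries lay below all 6 others. From RelB-KO to DKO, 9 of the 12 Th1 genes were positive and 3 negative, with a median of 0.06, and none passed in either fit.

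Between Nfkb2-KO and RelB-KO, where Tbx21 and Runx3 passed with the block, 9 of the 12 Th1 genes were positive, with a median of 0.48. None passed without the block, with 3 at an unadjusted p under 0.05, and 4 rose with it. They were Ifng (0.55 ± 0.12, adjusted p = 0.0406), the IL-18 receptor genes Il18r1 (0.72 ± 0.14, adjusted p = 0.0256) and Il18rap (0.62 ± 0.14, adjusted p = 0.0464), and Fasl, the death ligand (0.56 ± 0.10, adjusted p = 0.0151). From Nfkb2-KO to DKO, where Runx3 fell, Il18r1 (-1.04 ± 0.14, adjusted p = 0.00483), Il18rap (-0.97 ± 0.14, adjusted p = 0.00633) and Fasl (-0.52 ± 0.10, adjusted p = 0.019) fell with the block. Ifng differed by 0.07 there (adjusted p = 0.867 with the block). This comparison and that of Nfkb2-KO with RelB-KO share the Nfkb2-KO libraries with opposite sign, so the falls are no support for the rises. Summed markers of CD8 T and NK cells, which also express several Th1 genes, ranged from 617 to 944 over the 8 libraries, the 4 genotypes overlapped, and the NK cell markers Klrb1c and Ncr1 were too low to test.

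Rora, the Th17 factor that also marks Treg cells of tissues (chromosome 9, 68653786 to 69388246, plus strand), followed the replicate number more than the genotype. The log2 values of Rora were 9.35 and 9.10 in WT, 9.86 and 8.99 in RelB-KO, 9.55 and 9.03 in Nfkb2-KO, and 9.46 and 8.62 in DKO. Replicate 2 was lower than replicate 1 in each genotype, by 0.25, 0.87, 0.52 and 0.84, and every genotype overlapped every other. The mean replicate difference of -0.62 was larger in size than that of 97.1% of tested genes, beside a median size of 0.07. No difference between genotypes passed. DKO against RelB-KO gave -0.38 ± 0.38 (block standard error 0.14, unadjusted p = 0.0239 and adjusted p = 0.546 with the block).

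Most effector genes of the Th17 lineage were higher in Nfkb2-KO. All 9 genes of the Th17 list had a positive difference between Nfkb2-KO and WT, with a median of 0.47, and all 9 a negative one between DKO and Nfkb2-KO, with a median of -0.50. For 3 of them the sign says little, since Il22 (0.76 to 0.79 in all libraries), Il17re (1.86 to 2.00) and Il17f (3.42 to 3.61) were low and nearly level. The signs held under quantile normalization and with a pseudocount of 1. Il21, a cytokine gene, was 5.28 and 5.27 in WT, 5.11 and 5.28 in RelB-KO, 6.41 and 6.27 in Nfkb2-KO, and 5.41 and 5.72 in DKO, and both Nfkb2-KO libraries lay above all 6 others. Without the block, it rose by 1.07 ± 0.12 in Nfkb2-KO against WT (adjusted p = 0.0435), and Il23r, the IL-23 receptor chain, fell by 0.69 from Nfkb2-KO to DKO (adjusted p = 0.0158). Il23r was 5.43 and 5.54 in WT, 5.39 and 5.43 in RelB-KO, 5.97 and 6.02 in Nfkb2-KO, and 5.32 and 5.28 in DKO. With the block, 6 of the 9 rose in Nfkb2-KO against WT and 6 fell in DKO against Nfkb2-KO. They were Il17a, Il23r, Ccr6, Il1r1, Ccl20 and Il21 in each case. The comparisons share the Nfkb2-KO libraries. Without WT replicate 1, the number called against WT was 0, and 1 with the block (Il21).

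**Figure D3:**
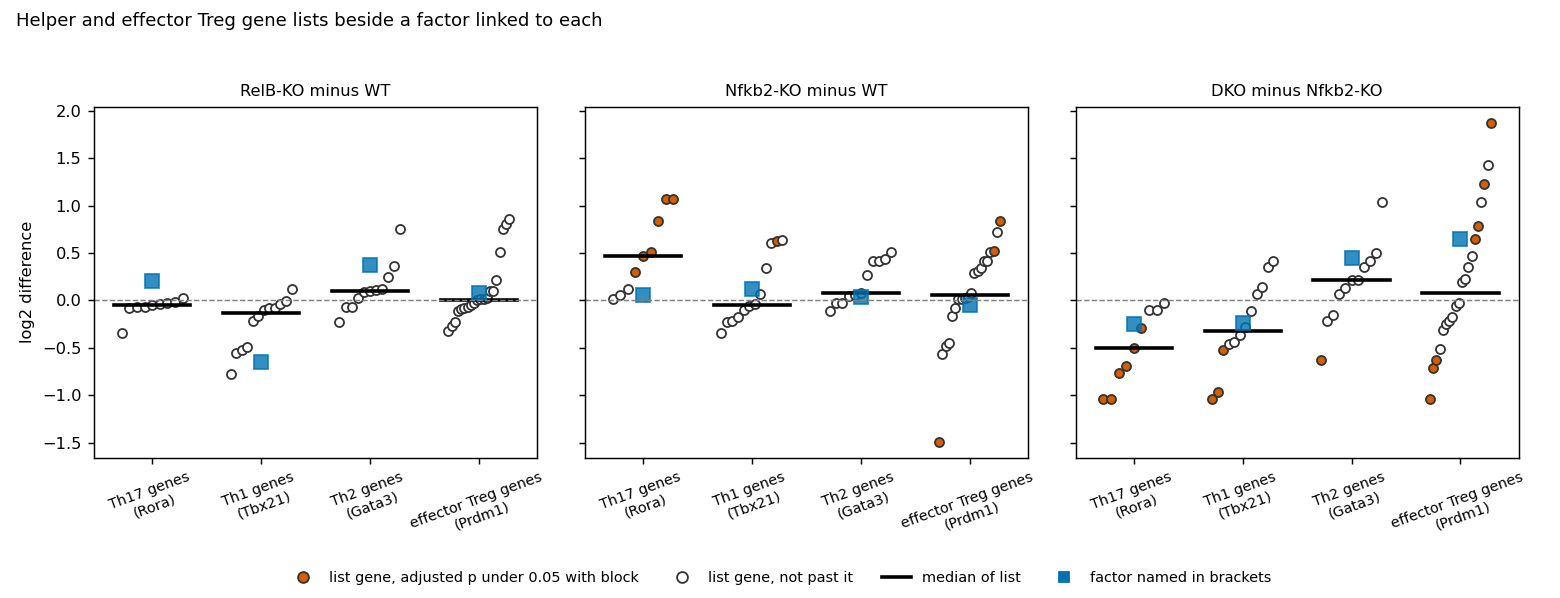
Log2 difference (vertical axis) of each gene in 4 lists of helper and effector Treg genes (horizontal axis) for RelB-KO against WT, Nfkb2-KO against WT and DKO against Nfkb2-KO. Circles are genes, filled where the adjusted p was under 0.05 with the replicate block, bars are list medians, and squares are the factor named in brackets; the Th17 medians of 0.47 and -0.50 stand away from Rora, at 0.06 and -0.25.

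Runx1, which binds with Foxp3 and Cbfb at Treg genes (chromosome 16, 92601466 to 92826149, minus strand), was level across the genotypes. Log2 values of Runx1 were 10.94 and 11.02 in WT, 10.99 and 11.11 in RelB-KO, 11.03 and 10.84 in Nfkb2-KO, and 11.05 and 11.06 in DKO. The genotype means spanned 0.11, and 39.7% of tested genes had a smaller span. The 95% interval of every pairwise difference included 0 in both fits, and without the block these intervals reached from -0.33 to 0.33 at their widest. Cbfb, the shared partner subunit, was between 12.13 and 12.34 in all libraries, and its differences between Nfkb2-KO and WT (0.15 ± 0.08) and between DKO and Nfkb2-KO (-0.03 ± 0.08) did not pass.

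Runx3, the RUNX factor of Th1 and CD8 T cells (chromosome 4, 135120652 to 135177990, plus strand), was the member with the widest span between genotypes. Its log2 values were 10.80 and 11.16 in WT, 10.73 and 10.55 in RelB-KO, 11.48 and 11.71 in Nfkb2-KO, and 10.74 and 10.66 in DKO. Both Nfkb2-KO libraries lay above all 6 others, and the RelB-KO and DKO libraries lay below both WT libraries and overlapped each other. Runx3 was 0.95 ± 0.15 higher in Nfkb2-KO than in RelB-KO, a ratio of 1.94 (adjusted p = 0.0514, and 0.00397 with the block). With a pseudocount of 1 this also passed without the block (adjusted p = 0.0495). It was 0.90 lower in DKO than in Nfkb2-KO (-0.90 ± 0.15, adjusted p = 0.0606, and 0.00511 with the block), with -0.74 within replicate 1 and -1.06 within replicate 2.

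Against WT, Runx3 was 0.62 ± 0.15 higher in Nfkb2-KO (adjusted p = 0.221), passed with the block (adjusted p = 0.0378), and stands at 0.61 with an adjusted p of 0.000624 in the authors' deposited table. In RelB-KO it differed from WT by -0.34 ± 0.15 (unadjusted p = 0.0248 and adjusted p = 1 with the block), by -0.52 without WT replicate 1 and by -0.16 without WT replicate 2. The interaction estimate was -0.56 ± 0.21, with an unadjusted p of 0.0313 and an adjusted p of 0.326 with the block, so a difference in the effect of RelB loss with and without Nfkb2 did not pass. The call in Nfkb2-KO against WT was lost with the block without WT replicate 1 (0.43, adjusted p = 0.144), either Nfkb2-KO library (0.0941 without replicate 1 and 0.21 without replicate 2) or either DKO library (0.0622 and 0.062). Without DKO replicate 2 the difference between DKO and Nfkb2-KO was -0.79 (adjusted p = 0.103). The difference from RelB-KO passed with the block whichever of the 8 libraries was left out (adjusted p from 0.00166 to 0.0278).

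**Figure D4:**
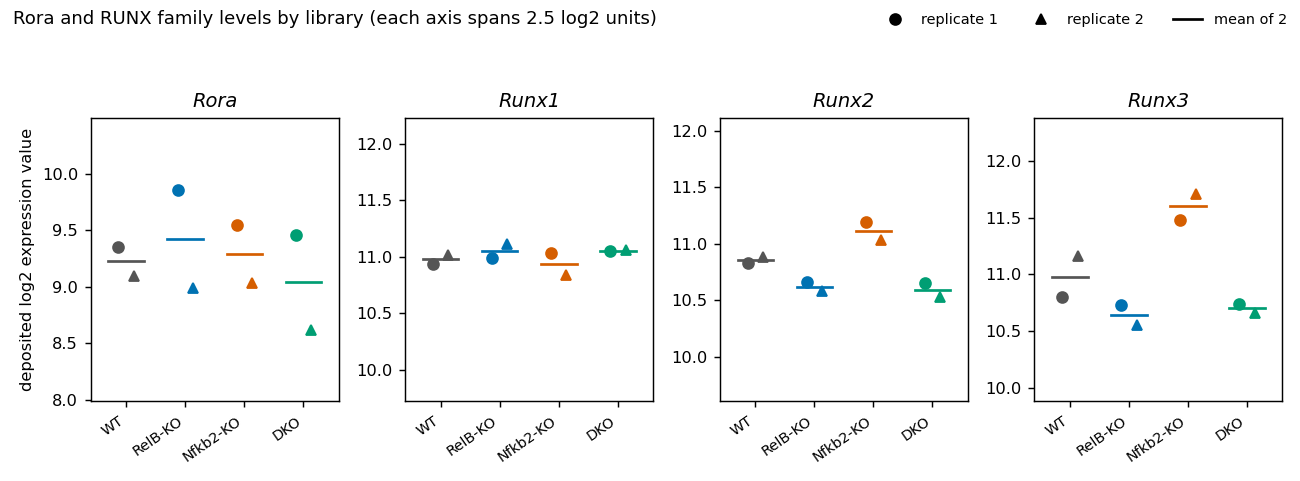
Deposited log2 expression value (vertical axis) of Rora, Runx1, Runx2 and Runx3 in the 4 genotypes (horizontal axis), with circles for replicate 1, triangles for replicate 2 and lines at genotype means. Runx2 and Runx3 are highest in both Nfkb2-KO libraries, Runx1 stays between 10.84 and 11.11, and Rora is lower in replicate 2 of each genotype.

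Runx2, the other RUNX paralog, was 10.83 and 10.88 in WT, 10.66 and 10.58 in RelB-KO, 11.19 and 11.03 in Nfkb2-KO, and 10.65 and 10.53 in DKO. As for Runx3, both Nfkb2-KO libraries lay above all 6 others and the RelB-KO and DKO libraries below both WT libraries. It fell by 0.52 from Nfkb2-KO to DKO with the block (adjusted p = 0.00616, and 0.065 without it). Of 19 tested relatives and partners of the 8 factors, 2 rose and 1 fell in Nfkb2-KO against WT with the block. The AP-1 subunits Jun (0.81 ± 0.16, adjusted p = 0.0323) and Junb (0.43 ± 0.09, adjusted p = 0.0393), partners that Batf pairs with, rose, and Irf1 fell. Jun (0.55, adjusted p = 0.117) and Junb (0.34, adjusted p = 0.146) no longer passed with the block without WT replicate 1. From Nfkb2-KO to DKO, 3 fell with the block, namely Junb, Runx2 and Tle3, which encodes a corepressor that RUNX proteins recruit. None of the 19 passed without the block in these comparisons, where 7 and 6 had an unadjusted p under 0.05.

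Runx3 has 2 promoters in RefSeq. The first is chr4:135120395-135120694 and the second chr4:135152295-135152594, both on the plus strand, and they are shown together since the deposited values do not separate transcripts from each.

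Runx3 first promoter: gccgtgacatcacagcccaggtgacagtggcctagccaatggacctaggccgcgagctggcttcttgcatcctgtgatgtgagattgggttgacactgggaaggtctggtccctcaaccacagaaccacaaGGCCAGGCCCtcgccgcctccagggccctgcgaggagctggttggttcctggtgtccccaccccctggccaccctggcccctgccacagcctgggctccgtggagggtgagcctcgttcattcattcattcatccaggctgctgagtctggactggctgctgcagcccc
Runx3 second promoter: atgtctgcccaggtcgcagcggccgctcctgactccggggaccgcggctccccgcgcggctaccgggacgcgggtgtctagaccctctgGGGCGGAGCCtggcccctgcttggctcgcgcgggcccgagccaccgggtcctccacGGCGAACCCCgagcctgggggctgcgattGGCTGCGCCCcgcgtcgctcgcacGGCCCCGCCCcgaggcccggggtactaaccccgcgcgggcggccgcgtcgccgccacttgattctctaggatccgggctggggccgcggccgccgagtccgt

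RefSeq gave 10 promoters of 300 bases for the 8 genes. On either strand, GGG with CC after any 5 bases occurred in 8 of the 10, against 50.8% of all 32851 promoters of the same length. The stricter kappaB consensus, which is contained in that core, occurred in 0 of the 10, against 8.46%. The AP-1 sequence TGANTCA occurred in 1, that of Prdm1, against 7.81%. The RUNX sequence TGTGGT occurred in 3, the first Runx3 promoter, that of Batf and the first of Runx1, against 16.8%, and an interferon response sequence, GAAA repeated after any 2 bases, in 0, against 3.44%. These are matches of letters in a short window and say nothing of binding.

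Among the 8 factors, the patterns closest to each other were those of Prdm1 and Batf. After the mean of each replicate was subtracted, their 8 values differed by a root mean square of 0.146, and the next closest pairs were Prdm1 with Gata3 (0.164) and Batf with Gata3 (0.178). The most unlike pair was Prdm1 and Runx3 (0.581). Irf4 was nearer to Tbx21 (0.263) and Runx3 (0.306) than to its partner Batf (0.391). Over the same 8 values, the tested genes outside the 8 factors nearest to Prdm1 were Fam69c (0.0574), Themis (0.0586), a T cell signalling adaptor, and B230120H23Rik (0.0856). Those nearest to Irf4 were 1110032F04Rik (0.0789), Scd2 (0.0799), a fatty acid desaturase, and Gm996 (0.0979). Those nearest to Batf were the chemokine receptor gene Ccr4 (0.0694), Tnfrsf8 (0.0808), which encodes CD30, and Mpzl1 (0.0982). Nearest to Tbx21 were Zfp783 (0.104), Fam83g (0.122) and Mboat1 (0.175), and nearest to Runx3 were Arid5a (0.0668), Adamtsl4 (0.0969) and Tmprss3 (0.0974).

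Other lineage factors, outside the 8, were called with the block only in contrasts that involve Nfkb2-KO, where most calls over all tested genes also lay. Of 19 such factors, 2 rose (Stat5a and Bhlhe40) and 1 fell (Bcl6) in Nfkb2-KO against WT with the block, and none passed without it, with 4 at an unadjusted p under 0.05. Bhlhe40, a factor of cytokine-producing helper cells, was 12.47 and 12.05 in WT, 12.31 and 11.46 in RelB-KO, 13.62 and 13.25 in Nfkb2-KO, and 11.94 and 11.38 in DKO. Both Nfkb2-KO libraries lay above all 6 others, as for Irf4 and Runx3. It rose by 1.17 ± 0.11 against WT (adjusted p = 0.00157) and fell by 1.77 from Nfkb2-KO to DKO (adjusted p = 1.0e-04), both with the block. Maf, a factor that drives IL-10, was 12.69 and 12.84 in DKO, above the range of 11.78 to 12.40 in the other libraries, the pattern of Prdm1 and Batf. It rose by 0.82 ± 0.16 from Nfkb2-KO to DKO with the block (adjusted p = 0.0244). Il10 itself was 10.70 and 11.24 in WT, 10.57 and 10.92 in RelB-KO, and 11.41 and 11.35 in Nfkb2-KO. In DKO Il10 was 10.67 and 11.65, which overlapped every other genotype.

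Markers of other cells varied by list. The summed un-logged B cell markers were 232 and 242 in DKO, 170 and 195 in WT, and 178 to 229 in the single knockouts. Most of that sum was Cd79b, with log2 values of 7.09 and 7.35 in WT and 7.63 and 7.72 in DKO. No B cell marker passed between DKO and WT in either fit. Pax5 and Ms4a1 were at 0 or too low to test. Of the 6 tested, Blk alone passed without the block, lower in DKO than in Nfkb2-KO and higher in Nfkb2-KO than in RelB-KO. Among the 7 tested myeloid and dendritic markers, Zbtb46, a dendritic cell factor, was 8.49 and 8.07 in WT, 8.62 and 7.84 in RelB-KO, 9.12 and 9.01 in Nfkb2-KO and 8.04 and 7.65 in DKO, and rose in Nfkb2-KO against WT with the block, and was the only one of the 7 called. Itgax and Siglech were at 0 or too low to test. The part of these markers in the results was not tested. Plasma cells express both Irf4 and Prdm1, and in the list for these cells Tnfrsf17 was too low to test and neither tested marker, Sdc1 nor Xbp1, passed in any contrast.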

How the data were processed

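RNA of 8 Treg cell libraries, 2 in each of 4 genotypes, was sequenced, and the series' design gives 30 M reads per sample. The log2 values used here are deposited by the authors, and per the file headers they are log2 RPKM after batch correction. They did not behave as RPKM, since un-logged values summed to 18.2 to 19.7 M per library, so levels are not compared between genes. Per the submitters' processing notes, STAR, mm10 and DESeq2 1.10.1 were used, with no roles given. How reads were counted, on which annotation, and how batches were corrected is not given in the sources used here. Counts were not used, so the depth of a value is unknown and no interval for counting error is printed. The authors also deposited log2 fold changes with p-values and adjusted p-values against WT, given as theirs where used. The authors also deposited a standardised score per gene and library, per the file headers, which was not used.

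Of the 22432 genes listed, 6247 were at 0 throughout and 1 lacked a value. Genes whose un-logged values averaged at least 1 were tested, 13797 in all. limma 3.58.1 (R 4.3.3) was fitted to the deposited log2 values of all libraries, with 4 genotype means, moderated variances with a trend on expression and no block, leaving 4 residual degrees of freedom. Each of 7 contrasts was adjusted by Benjamini-Hochberg over all tested genes, with a threshold of 0.05. The fit with the replicate number as a block left 3. The numbers were taken to pair the libraries, because the difference between replicates 2 and 1 correlated across genes between genotypes at 0.81 to 0.89 in all 6 pairs of genotypes (genes are not independent replicates). The script was tested on simulated data. Positions of genes are from GENCODE vM21 (mm10) and promoters from RefSeq.

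The 8 factors and the gene lists were chosen with earlier results of these data known. Genes outside the lists are named by 1 rule: for each factor whose genotype means spanned at least 0.5, the 3 tested genes of nearest pattern (Gata3 was just under it before rounding). Blk, Zbtb46 and Xbp1 come from the marker lists. Lists are described by counts and medians only, and some genes are not reported here and were left out of them.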

Additional observations from a re-analysis of the deposited data

How the results depend on the processing

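The replicate block changed the number of factors called from 0 to 2 in Nfkb2-KO against WT, from 0 to 2 in DKO against Nfkb2-KO and from 0 to 3 in Nfkb2-KO against RelB-KO, and changed no other number of factors called. A pseudocount of 1 gave 1 call, Runx3 in Nfkb2-KO against RelB-KO. No filter on low values, a stricter filter (mean log2 value of at least 5), quantile normalization, no variance trend and a fit of only the groups compared each gave 0 in every contrast they could be run for. Leaving out 1 library at a time, with or without the block, gave 0 to 2 calls in Nfkb2-KO against WT, 0 to 1 in DKO against WT, 0 to 3 in DKO against Nfkb2-KO and 0 to 3 in Nfkb2-KO against RelB-KO. Where this left a genotype with 1 library, that library was assumed to vary as the others did. Rora in DKO against RelB-KO ranged from -0.82 to 0.05 without the block, and was 0.05 without RelB-KO replicate 1 and 0.03 without DKO replicate 2. Over all 56 differences of the 8 factors, 71 of 1280 recomputed values changed sign, in 28 of the differences. Lists were recounted, and differences of their genes from WT refitted, without WT replicate 1, and the myeloid and dendritic markers summed without Zbtb46, alternatives chosen after seeing the data. With 2 libraries a genotype and unknown depth, a difference that did not pass may still exist.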
